A study of Mus musculus with 7 samples.

Results

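The genes described here are 56 genes of mitosis, spindle assembly and chromosome segregation, taken from a list of symbols and measured in mouse LSK cells with and without the kinase Lkb1 (gene Stk11). A member was represented by its brightest probe set that carried its symbol and no other in the platform annotation, by the mean over all 7 arrays. This gave 51 of the 56 members, among 12393 genes with such a probe set on the array. All 51 lay above the filter on dim genes and were tested among 8077 genes. Ccnb1 (cyclin B1), Cdca8 (borealin), Espl1 (separase), Kif20b and Spc24 had no probe set of their own symbol and were not analysed here. The labels name the Affymetrix mouse 430 2.0 chip, while the platform annotation and the number of deposited probe sets are those of a smaller design.

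LSK cells are the bone marrow cells that lack lineage markers and carry Sca-1 and c-Kit, which covers the blood stem cells together with multipotent progenitors. The 4 Lkb1 KO samples (numbers 4 to 7) came from adult Lkb1 L/L mice with rosa26CreERT2, a tamoxifen-activated Cre expressed from the ubiquitous Rosa26 locus. The 3 Lkb1 WT samples (numbers 5 to 7) came from Lkb1 L/L mice without Cre. Both genotypes (C57BL/Ka-CD45.2:Thy-1.1 mice) carried the floxed alleles and received tamoxifen for 5 days, and their cells were sorted 1 day after the end of that treatment. Cre was thus present in the KO mice alone, and its deletion was not limited to blood cells. Each sample held 15000 to 20000 sorted cells, from which about 10 ng of total RNA was amplified, labelled and hybridised to 1 array. The labels do not say that each sample came from a separate mouse. The spread behind each p-value is that of these 7 samples and may be technical.

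The targeted gene Stk11 had normalised signals of 130.5, 112, 87.5 and 71.6 on the KO arrays, against 185, 128 and 149 on the WT arrays. The groups overlapped (log2 fold change -0.56 ± 0.19, limma adjusted p = 0.118), and it is not known here whether the probe set covers deleted exons, so Stk11 does not check the labels. The KO arrays were brighter before normalisation, with trimmed means between 360.4 and 426 signal units in KO, against 229 to 341 in WT (p = 0.0286, two-sided exact permutation, the smallest that 35 splits allow). The Actb controls gave a ratio of 3' to 5' signal between 11.4 and 12.3 on KO arrays and between 12.6 and 13.1 on WT arrays (p = 0.0571, two-sided exact permutation). In the Gapdh controls this ratio overlapped, at 7.49 to 7.95 on KO arrays and 6.68 to 9.46 on WT arrays. Of the genes that define the gate, Kit averaged 1361 signal units in KO and 1843 in WT, and the Sca-1 gene Ly6a was not analysed. Cd34, a progenitor marker outside the gate's definition, averaged 2452 in KO and 2591 in WT. Markers of mature neutrophils, which the gate should exclude, were present: 12 such genes summed to between 10609.8 and 14583 signal units in KO, against 31482 to 43689.6 in WT, none of the 12 stayed under background on all arrays, and 8 of the 11 tested fell. The 11 also held 2 genes measured higher, Itgam (49.2 in KO, 33.4 in WT) and Csf3r (340 in KO, 328 in WT). At an unadjusted p under 0.05, 1 of the 11 was higher. Of 7 erythroid genes 2 fell, 6 were lower at an unadjusted p under 0.05, and all 7 had each KO value below each WT value. Of 8 stem cell genes 2 fell and 5 were lower at an unadjusted p under 0.05. Over all tested genes, 2.9% fell, 12.7% had each KO value below each WT value, and 13.6% were lower at that unadjusted p. Of the other lists, 1 of 8 monocyte genes and the single tested T and NK gene rose, and none of 5 megakaryocyte or 2 B-lineage genes passed in limma, with 2 and 0 lower at an unadjusted p under 0.05. Monocyte and macrophage genes summed to between 4382 and 6718 in KO, against 2854 to 3815 in WT. Most of this sum was a single gene, Csf1r (mean 4479 in KO, 2643.5 in WT). Of the 8 tested, 6 were measured higher and 2 lower, the latter being Cd68 (157 in KO, 162 in WT) and C1qb (90.0 in KO, 106 in WT). The dim gene C1qa was lower as well (5.88 in KO, 16.6 in WT). The T and NK gene was Nkg7 (3001 in KO, 2011 in WT). Dimmer genes of its list, not tested, went both ways. Cd2 averaged 11.2 in KO and 34.4 in WT, Cd3d 16.5 and 32.6, and Cd8a 22.4 and 15.0. The part of other cell types in the results below was not tested.

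Cells enter mitosis when Cdk1 bound to cyclin B is switched on by Cdc25 phosphatases. Condensins and topoisomerase then shape the chromosomes, kinetochores attach them to the spindle, and the spindle checkpoint holds back the anaphase-promoting complex until every chromosome is attached. Genes for these steps are expressed together in late S phase, G2 and M by the factors B-Myb and FoxM1 with the MuvB complex, and are low in cells at rest. In bone marrow, the most primitive stem cells are mostly at rest while the multipotent progenitors of the same gate divide, so that these transcripts mark the dividing share of the gate. In RNA from whole samples, fewer cells in division and less RNA per cell cannot be told apart.

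Most mitosis genes were measured slightly higher in KO than in WT, and few of them passed the test. Kif20a (1.69-fold), Birc5 (1.62-fold), Anp32e (1.47-fold), Bub1 (1.45-fold) and Cdk1 (1.31-fold) rose, and no member fell. These 5 are 9.80% of the 51 tested members, against 2.48% of all 8077 tested genes called higher (limma, Benjamini-Hochberg adjusted p under 0.05 over all genes). For falls the counts are 0 of 51, against 2.9% of all genes called lower. At an unadjusted p under 0.05, 19 of the 51 members (37.3%) were higher, against 11.8% of all genes, and 1 was lower, against 13.6% of all genes. The log2 fold change, KO minus WT on the log2(signal + 16) scale, was above 0 for 45 of the 51 members and for 47.7% of all tested genes. Its median was 0.22 over the members, with a range of -0.45 to 0.75, and -0.02 over all tested genes. On 16 members each KO value lay above each WT value, where 11.4% of all tested genes did so, and on 1 member, Cdc25b, each KO value lay below each WT value, where 12.7% of all genes did so. The calls lay close to the threshold. Without Lkb1 KO 6 only Anp32e passed, and without KO 4, KO 5, KO 7, WT 5, WT 6 or WT 7 no member did, in limma fits of fewer samples in which fewer of all genes passed as well. The log2 fold changes moved less, between 0.48 and 0.58 for Bub1 and between 0.49 and 0.61 for Anp32e over these 7 fits.

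**Figure D1:**
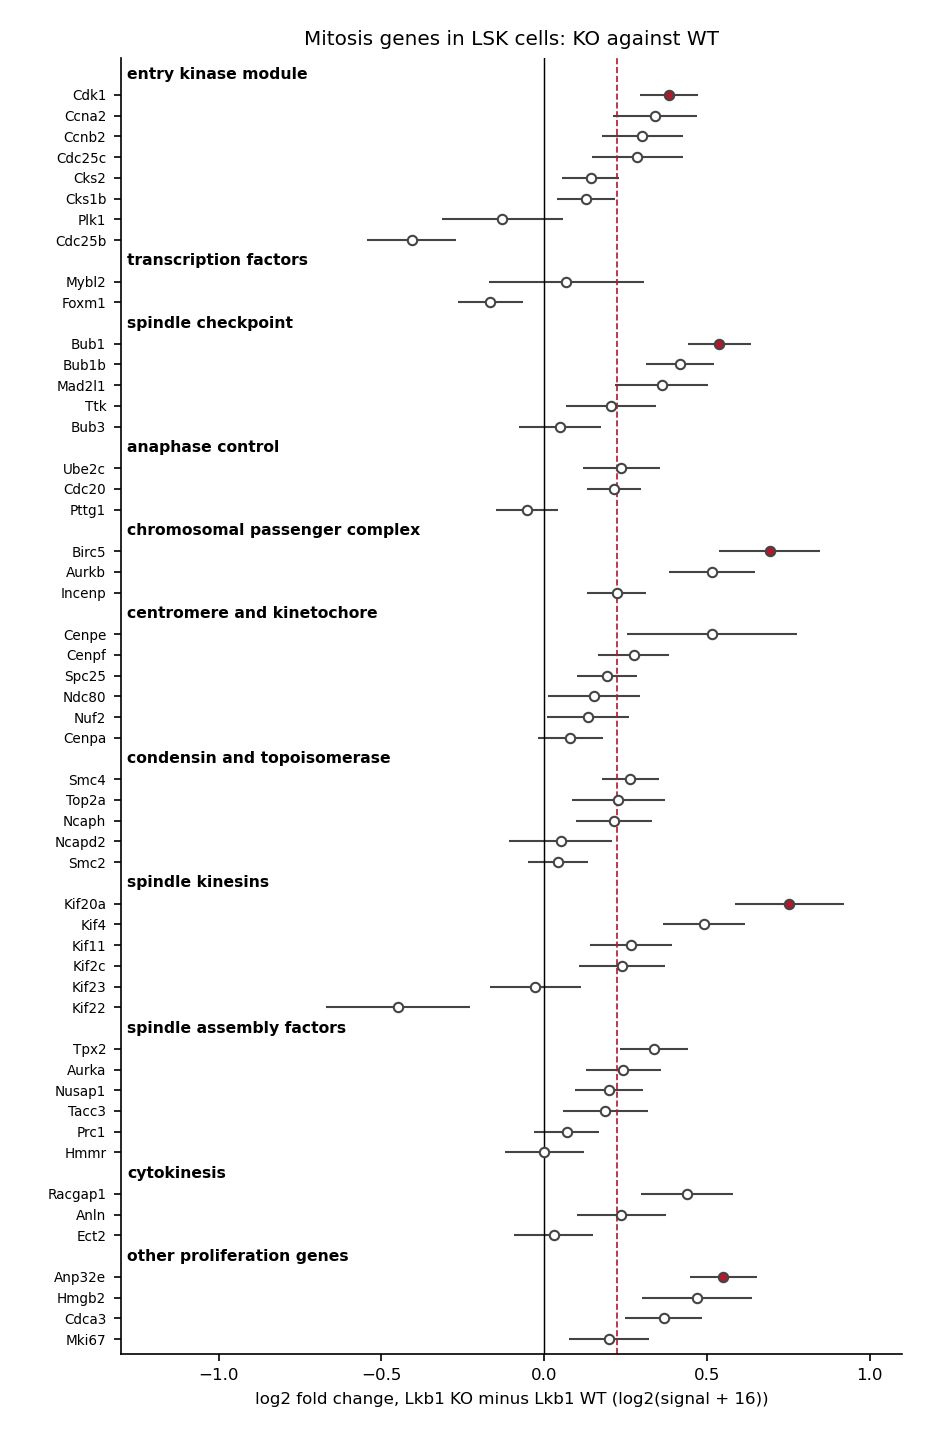
Log2 fold change (x axis, KO minus WT, log2(signal + 16)) of the 51 tested mitosis genes, grouped by role, as points with bars for the standard error from limma (4 KO and 3 WT arrays). Filled points are the 5 genes with adjusted p under 0.05, the dashed line is the members' median of 0.22, and 45 of the 51 points lie right of 0.

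The size of these differences depends on the scaling of the arrays. In the signals as deposited, where the median tested gene was already 0.34 log2 units higher in KO, the members' median was 0.62, 46 of 51 members lay above the median gene and 49 lay above 0, the exceptions being Cdc25b and Kif22. With arrays centred on their medians, the median tested gene was at 0.08 and the members' median at 0.36. Unless another setting is named, values below are after quantile normalisation, which gives each array the same distribution of signals. They are thus relative to the other genes on the array.

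The spread between arrays was not the same in every member, as the map of deviations shows. Each member's log2 value was set against its own mean over the 7 arrays. KO 5 had the most members above their own mean, 47 of 51, followed by 37 on KO 4, 32 on KO 6 and 30 on KO 7, against 9 on WT 5, 19 on WT 6 and 7 on WT 7. The median deviation over the 51 members was 0.09 on KO 4, 0.19 on KO 5, 0.04 on KO 6 and 0.04 on KO 7, against -0.15 on WT 5, -0.05 on WT 6 and -0.18 on WT 7. KO and WT arrays did not overlap in this value, and WT 6 lay closest to the KO arrays. With WT 6 left out, the number of members with no overlap was 28 in place of 16, against 15.7% of all genes. It was 19 without WT 5 and 18 without WT 7, against 15.8% and 16.3% of all genes, and fewer arrays make separation easier.

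**Figure D2:**
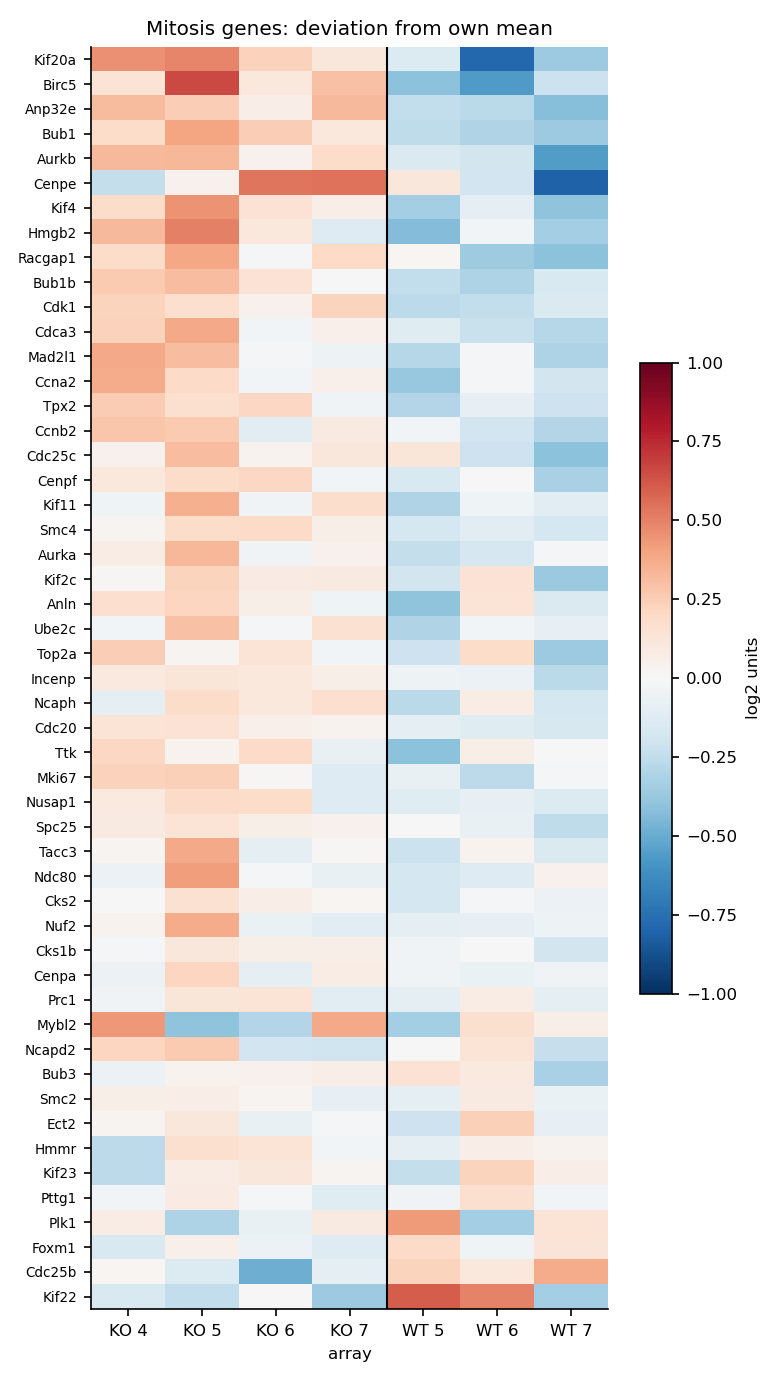
Deviation of each of the 51 tested mitosis genes (rows, ordered by log2 fold change) from its own mean over the 7 arrays (columns, KO left of the line and WT right of it), in log2 units. The KO 5 column is the most often red, with 47 of 51 genes above their mean, and the WT 7 column the least, with 7.

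Promoter windows were available from RefSeq for 47 of the 56 members, each running from 250 bases before to 50 after the annotated start (300 bases, GRCm38.p6). Late cell cycle promoters are known for the cell cycle genes homology region, to which the MuvB complex binds and whose best known forms are TTTGAA and TTCGAA, and for CCAAT boxes, to which NF-Y binds. Searched on both strands, TTTGAA stood in the windows of 34 of 47 members (72.3%), against 20.2% of 27025 genes with a window, 14.2% of the tested genes with a window and 16.7% of 48 DNA replication genes. TTCGAA, which reads the same on both strands, stood in 4 of 47 members (8.51%), against 1.80% of all genes. CCAAT stood in 35 of 47 members (74.5%), against 41.1% of all genes and 56.25% of DNA replication genes. A CCAAT together with either of the other motifs stood in 32 of 47 members (68.1%), against 8.61% of all genes and 12.5% of DNA replication genes. Matches of different motifs were allowed to share bases, and a match is a description and not a site shown to be bound. Of the members tested, the 33 with TTTGAA or TTCGAA had a median log2 fold change of 0.21 and the 10 without had 0.19, and 3 and 1 of them rose.

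The upstream 250 bases of 4 of the genes that rose are shown, 5′ to 3′ on the gene's strand, because they differ in these motifs. Capitals mark TTTGAA (read as TTCAAA on the other strand) and CCAAT (read as ATTGG), and the last base is position -1.
Cdk1 (GRCm38.p6, chr10:69352913-69353162, - strand): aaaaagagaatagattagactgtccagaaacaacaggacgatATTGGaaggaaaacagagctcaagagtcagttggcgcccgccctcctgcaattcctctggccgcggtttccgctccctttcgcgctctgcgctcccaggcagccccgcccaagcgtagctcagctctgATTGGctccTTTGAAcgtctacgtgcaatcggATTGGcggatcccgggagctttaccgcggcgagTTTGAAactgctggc
Bub1 (GRCm38.p6, chr2:127831860-127832109, - strand): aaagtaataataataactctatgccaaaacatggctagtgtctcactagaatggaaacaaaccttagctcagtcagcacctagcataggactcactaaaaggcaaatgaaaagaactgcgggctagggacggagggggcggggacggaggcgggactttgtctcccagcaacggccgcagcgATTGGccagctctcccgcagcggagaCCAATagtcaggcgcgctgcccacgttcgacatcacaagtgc
Birc5 (GRCm38.p6, chr11:117848987-117849236, + strand): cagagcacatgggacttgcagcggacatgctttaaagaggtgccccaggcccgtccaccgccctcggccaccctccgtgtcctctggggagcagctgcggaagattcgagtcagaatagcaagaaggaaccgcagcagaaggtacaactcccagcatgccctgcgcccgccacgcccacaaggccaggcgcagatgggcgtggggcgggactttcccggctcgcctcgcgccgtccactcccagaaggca
Anp32e (GRCm38.p6, chr3:95929007-95929256, + strand): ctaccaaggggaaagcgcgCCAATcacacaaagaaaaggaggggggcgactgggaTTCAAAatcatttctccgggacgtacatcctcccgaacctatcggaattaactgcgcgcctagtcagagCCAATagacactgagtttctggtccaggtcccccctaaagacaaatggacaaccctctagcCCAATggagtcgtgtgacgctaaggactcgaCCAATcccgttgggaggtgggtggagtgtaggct
Cdk1 held 2 TTTGAA, starting at -71 and -15, and 3 CCAAT boxes on the opposite strand. Bub1 held 2 CCAAT boxes, at -68 and -42, and its TTCGAA lay past the printed stretch, from position 15 to 20 after the start. Anp32e held 4 CCAAT boxes and 1 TTTGAA on the opposite strand at -195. None of the letters searched was found in the Birc5 window. Kif20a had no window in the table used.

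Among the genes that start mitosis, 1 of 8 tested rose and 7 did not pass. Over all tested genes, 2.48% were called higher, 11.4% had no overlap with KO higher and 47.7% were above 0. At an unadjusted p under 0.05, 11.8% were higher. These shares are the reference for the counts of each role below. Cdk1, the kinase that drives entry into mitosis, had normalised signals of 1382, 1333, 1219 and 1388 on the KO arrays (numbers 4 to 7 in order, here and below), against 983, 995 and 1067 on the WT arrays (numbers 5 to 7 in order). Each KO value was higher than each WT value, and Cdk1 rose (log2 fold change 0.38 ± 0.09 SE, n = 4 and 3, limma adjusted p = 0.0476). It passed in none of the 7 fits without 1 sample, where its log2 fold change ran from 0.36 to 0.42. The partner cyclins Ccna2 (0.34) and Ccnb2 (0.30), the phosphatase gene Cdc25c (0.29) and the Cdk-binding subunits Cks2 (0.14) and Cks1b (0.13) were measured higher with adjusted p of 0.15 to 0.401. Their groups overlapped except for Cks2.

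The other phosphatase gene, Cdc25b, ran the opposite way. Its signals were 197, 175, 134 and 181 in KO, against 229, 209.7 and 255 in WT. Each KO value was lower than each WT value, but the difference did not pass (log2 fold change -0.41 ± 0.14, limma adjusted p = 0.112) and was -0.04 in the signals as deposited. Plk1, a kinase of mitotic entry and spindle poles, had signals of 83.6, 60.5, 73.9 and 84.6 in KO, against 111, 58.8 and 87.8 in WT. These overlapped (-0.13 ± 0.19, adjusted p = 0.705), and the sign turned in the signals as deposited (0.16) and without WT 5 (0.048).

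Neither of the transcription factors of this programme passed the test. Foxm1 had signals of 136, 159, 146 and 139 in KO, against 177, 148 and 169 in WT, with overlapping groups (log2 fold change -0.17 ± 0.10, adjusted p = 0.337; 0.18 in the signals as deposited). A dimmer Foxm1 probe set above background on all arrays gave -0.55 (exact permutation p = 0.0857, two-sided). Its suffix _x_at marks probes that can also match other transcripts. Another, above background on 6 arrays, gave the opposite sign with overlap (0.59, exact permutation p = 0.4, two-sided). The dimmest did not exceed background on any array. Mybl2, which codes for B-Myb, ran from 48.5 to 99.2 in KO and from 51.2 to 79.3 in WT (0.07 ± 0.24, adjusted p = 0.883).

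Of the spindle checkpoint genes, 1 of 5 rose and 4 did not pass, and all 5 were above 0. Of all tested genes, 2.48% were called higher and 47.7% were above 0. Bub1, a checkpoint kinase at kinetochores, had signals of 404, 470.2, 423 and 383 in KO, against 295, 284 and 272 in WT. The lowest KO array stood well above the highest WT array, and Bub1 rose (log2 fold change 0.54 ± 0.10, limma adjusted p = 0.0252). Its second probe set gave 0.63 with overlapping groups (exact permutation p = 0.143, two-sided). Bub1b, which codes for the checkpoint protein BubR1, did not overlap between the groups (383 to 479 in KO, 306 to 343 in WT) and did not pass (0.42 ± 0.10, adjusted p = 0.0577). Mad2l1 (0.36), the checkpoint protein that binds Cdc20, the kinase gene Ttk (0.21) and Bub3 (0.05) overlapped.

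None of 3 tested genes of anaphase control passed. Cdc20, the activator of the anaphase-promoting complex, had signals of 5169, 5179, 4869 and 4799.9 in KO, against 4412, 4308 and 4206 in WT. The groups did not overlap, but the difference was small (log2 fold change 0.21 ± 0.08, adjusted p = 0.152). The dimmest Cdc20 probe set gave a larger difference without overlap (0.88, exact permutation p = 0.0286, two-sided). It lay between 84.1 and 128 signal units in KO, against 47.0 to 55.9 in WT. The middle one gave 0.19 with overlap. The brightest and the dimmest have the suffix _x_at, which marks probes that can also match other transcripts, and the middle one does not. The ubiquitin-conjugating enzyme gene Ube2c was at 0.24 and the securin gene Pttg1 at -0.05, both with overlapping groups.

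The chromosomal passenger complex corrects faulty attachments and later guides cell division. Each of its 3 tested members had all KO values above all WT values, and 1 rose. Of all tested genes, 11.4% had all KO values above all WT values and 2.48% were called higher. Birc5, which codes for survivin, had signals of 479.5, 694, 468 and 536 in KO, against 322, 289 and 373 in WT. Birc5 rose (log2 fold change 0.69 ± 0.15, limma adjusted p = 0.0419), with KO 5 the highest array. It passed in none of the 7 fits without 1 sample, at 0.57 to 0.79. Aurkb, the kinase of the complex, had signals of 541, 543, 442 and 490.0 in KO, against 386, 376 and 286 in WT. Its difference missed the threshold (0.52 ± 0.13, adjusted p = 0.0592), and a dimmer probe set gave 0.46 without overlap (exact permutation p = 0.0286, two-sided). The scaffold gene Incenp gave 0.22 with its brightest probe set (adjusted p = 0.172) and 0.31 with the next (exact permutation p = 0.0286, two-sided). The brightest probe sets of Aurkb and Incenp have the suffix _x_at, which marks probes that can also match other transcripts. That of Incenp had a mean deposited signal of 9990, against 235 for the next.

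**Figure D3:**
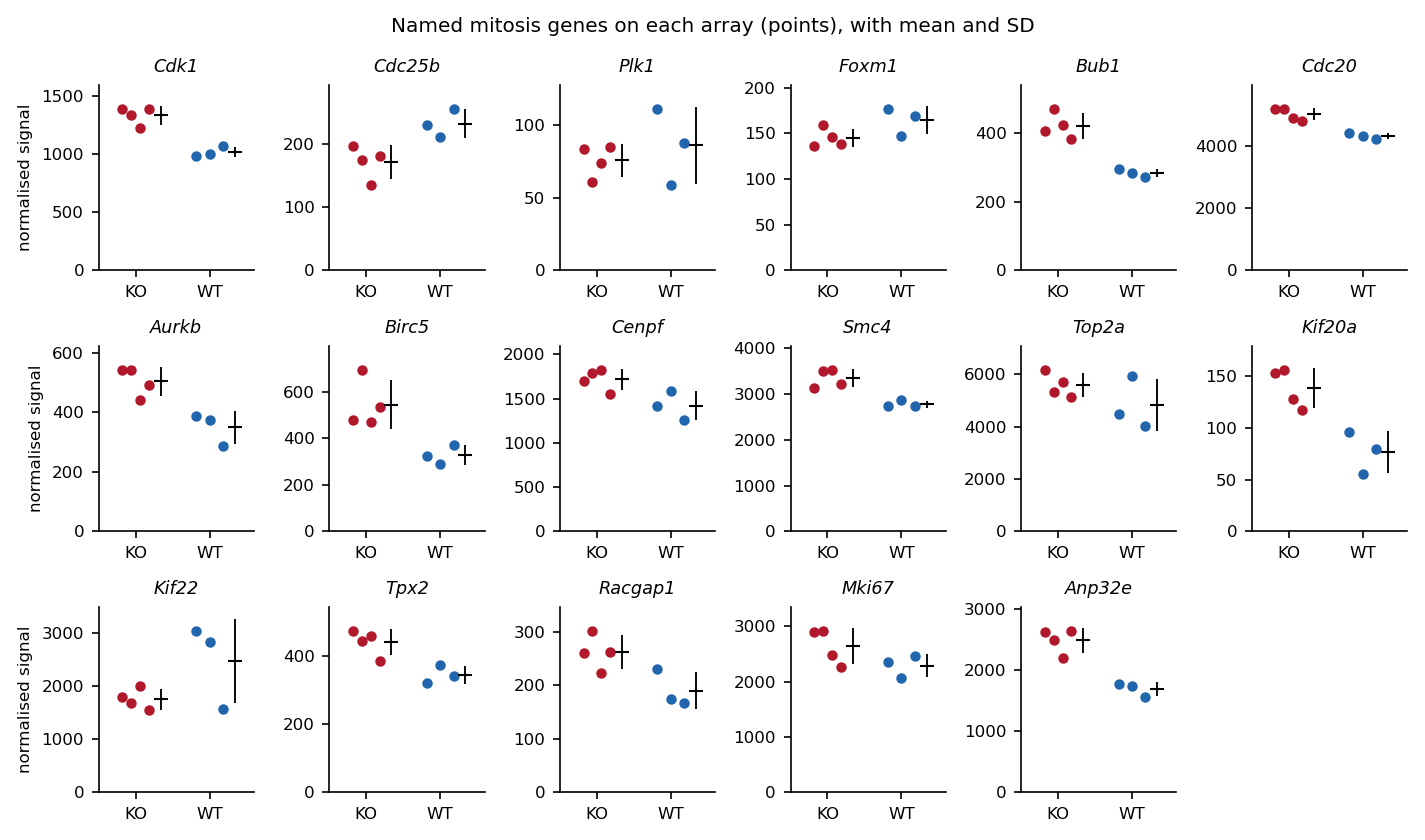
Normalised signal (y axis, linear, from 0) of 17 named mitosis genes on each array, with 4 KO points left and 3 WT points right in each panel, and the mean with SD beside each group. Bub1, Anp32e, Birc5, Kif20a, Cdk1 and Aurkb show no overlap with KO higher, Cdc25b shows none with KO lower, and Mki67, Top2a, Plk1, Foxm1 and Kif22 overlap.

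None of 6 tested centromere and kinetochore genes passed, while all 6 were above 0, where 47.7% of all tested genes were. Cenpf, a large protein of the outer kinetochore, had signals of 1699.9, 1789.8, 1825 and 1549 in KO, against 1418, 1580.4 and 1258 in WT. The lowest KO array fell below the highest WT array (log2 fold change 0.27 ± 0.11, adjusted p = 0.165). The motor protein gene Cenpe was at 0.52 with a wide error (± 0.26), and at 21.1 to 78.5 signal units it was the dimmest member tested. In the Ndc80 complex, which holds microtubules, Spc25 was at 0.19 without overlap, Ndc80 at 0.15 and Nuf2 at 0.13, and the centromere histone gene Cenpa was at 0.08.

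None of 5 tested genes of chromosome condensation passed. The condensin gene Smc4 had signals of 3137, 3495, 3524 and 3204 in KO, against 2734, 2866 and 2727 in WT, with no overlap (log2 fold change 0.26 ± 0.09, adjusted p = 0.111). Its partner in every condensin, Smc2, was at 0.04 with overlap. Top2a, the DNA topoisomerase of dividing cells, had signals of 6174, 5317, 5725 and 5117 in KO, against 4498, 5922 and 4031 in WT. The WT 6 array exceeded 3 of the 4 KO arrays (0.23 ± 0.14, adjusted p = 0.357). The condensin I subunits Ncaph and Ncapd2 were at 0.22 and 0.05.

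Of 6 tested spindle kinesins, 1 rose and 5 did not pass. Kif20a, a kinesin of the central spindle needed for cytokinesis, had signals of 152, 156, 128 and 117 in KO, against 95.4, 55.0 and 79.1 in WT, and rose (log2 fold change 0.75 ± 0.17, limma adjusted p = 0.0419). It passed in none of the 7 fits without 1 sample, at 0.58 to 0.90. The chromosome-bound kinesin gene Kif4 did not overlap (209 to 278 in KO, 147 to 186 in WT) and missed the threshold (0.49 ± 0.12, adjusted p = 0.0591). The spindle motor gene Kif11 (0.27, without overlap), the microtubule depolymerase gene Kif2c (0.24) and the central spindle gene Kif23 (-0.03) did not pass.

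Kif22, a kinesin that pushes chromosomes along the spindle, depended on the probe set. Its brightest probe set, whose suffix _x_at marks probes that can also match other transcripts, had signals of 1785, 1675, 1992 and 1541 in KO, against 3040.2, 2821 and 1570.1 in WT. WT 7 lay among the KO arrays and the other WT arrays above them (log2 fold change -0.45 ± 0.22, adjusted p = 0.251). The next probe set gave the opposite sign with no overlap, between 269.7 and 330.4 in KO, against 212 to 256 in WT (0.31, exact permutation p = 0.0286, two-sided). The dimmest gave 0.04, so no direction is given for Kif22. The brightest probe sets of Aurkb, Cdc20, Hmgb2, Incenp, Kif2c, Ncaph and Tacc3 carry the same suffix, and the same limit holds for them. It also holds for dimmer probe sets with this suffix, among them probe sets of Cdc20, Foxm1, Cdca3 and Hmmr.

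Genes of spindle assembly and of cytokinesis stayed below the threshold, with 0 of 6 and 0 of 3 past it in limma and 1 of each higher at an unadjusted p under 0.05. Tpx2, which activates Aurora A on the spindle, had signals of 473, 443, 459 and 385 in KO, against 320.3, 372 and 341 in WT, with no overlap (log2 fold change 0.34 ± 0.10, adjusted p = 0.0932). Racgap1, of the centralspindlin complex, had signals of 260.3, 302, 224 and 263 in KO, against 230.4, 174 and 166 in WT. KO 6 fell below WT 5 (0.44 ± 0.14, adjusted p = 0.101), and the other Racgap1 probe set gave 0.45. Aurka (0.24), which codes for Aurora A, the microtubule binder Nusap1 (0.20), Tacc3 (0.19), the bundling factor Prc1 (0.07) and Hmmr (0.00) overlapped, as did the division furrow genes Anln (0.24) and Ect2 (0.03).

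Of the other proliferation genes, 1 of 4 rose. Anp32e, a histone chaperone that removes the variant H2A.Z, had signals of 2619.6, 2495, 2199 and 2641 in KO, against 1769.8, 1742 and 1563 in WT. The groups were far apart relative to their spread, and Anp32e rose (log2 fold change 0.55 ± 0.10, limma adjusted p = 0.0261). Its dimmer probe set gave 0.26 with overlap (exact permutation p = 0.114, two-sided). Mki67, which codes for the proliferation antigen Ki-67, had signals of 2896, 2917, 2487 and 2256 in KO, against 2349, 2061 and 2453 in WT. KO 4, KO 5 and KO 6 were above all WT arrays and KO 7 was below WT 5 and WT 7 (0.20 ± 0.12, adjusted p = 0.346). The chromatin protein gene Hmgb2 was at 0.47 with overlap (adjusted p = 0.133) and Cdca3, which triggers mitotic entry, at 0.37 without overlap (adjusted p = 0.102).

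Probe sets that did not represent their gene give a second view of these transcripts in the same RNA. The 51 members had 97 probe sets, of which 87 exceeded the background level of 13.6 signal units on all 7 arrays. Of the 36 dimmer ones among these, 31 had a higher mean in KO. The same share over the dimmer probe sets of all genes was not computed, so this count has no reference. Some of the 36 also belong to the same gene and are not independent. For 27 members with more than 1 such probe set, all pointed the same way in 22 and differed in 5, which were Cdca3, Cenpf, Kif22, Prc1 and Pttg1. Besides the Cdc20, Incenp and Kif22 probe sets above, a dimmer probe set gave a larger difference than the brightest one, with no overlap, for Cks1b (0.51 against 0.13), Tacc3 (0.49 against 0.19), Ccna2 (0.47 against 0.34) and Cks2 (0.22 against 0.14). The exact permutation p (two-sided) of the dimmer probe set was 0.0286 for Cks1b and Tacc3, 0.0571 for Ccna2 and 0.0857 for Cks2. The log2 fold change was lower in 14 of the 36 dimmer probe sets than in the brightest of the same gene, among them Tpx2 (0.18 against 0.34), Kif11 (0.09 against 0.27), Cdca3 (0.03 and -0.17 against 0.37) and Cenpf (-0.12 against 0.27), and higher in 22. Hmmr, at 0.00 in its brightest probe set, gave 0.18 and 0.56 in the dimmer ones above background, both with overlap.

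**Figure D4:**
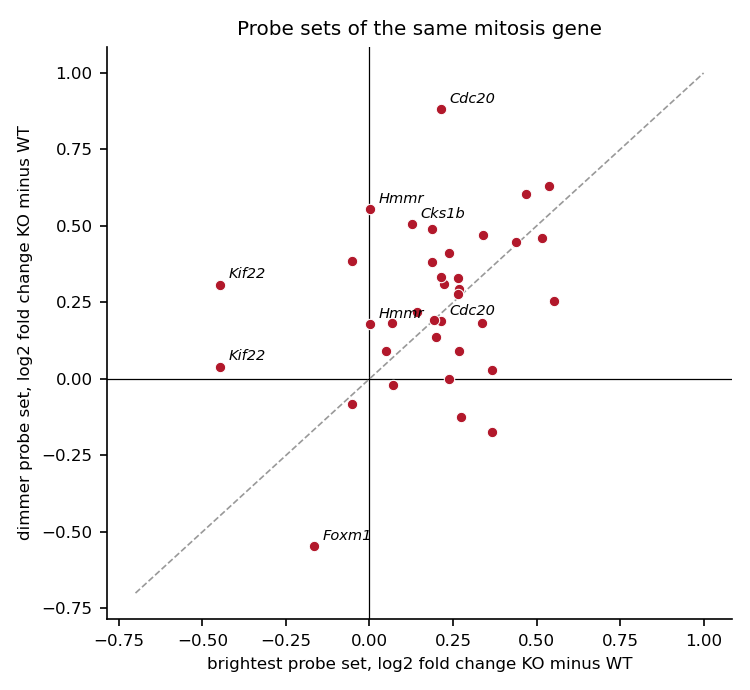
Log2 fold change (KO minus WT) of each of the 36 dimmer probe sets above background (y axis) against that of the brightest probe set of the same gene (x axis), with a dashed line where both are equal. Of the 36 points 31 lie above 0 on the y axis, a count without a reference over all genes, and the Kif22 points lie left of 0 and above it.

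Other genes of mitosis were taken from a wider list of 111 genes that holds none of the members. Of 77 tested, 2 rose and none fell, which is 2.60% called higher against 2.48% of all genes. At an unadjusted p under 0.05, 24 (31.2%) were higher and 3 lower, against 11.8% and 13.6% of all genes. The median log2 fold change was 0.14, and 54 lay above 0, where 47.7% of all genes did so. The 2 calls were 1 without KO 4, KO 5 or WT 5 and 0 without KO 7, WT 6 or WT 7. Kpna2, an importin, had signals of 3733, 3733, 3784 and 3807 in KO, against 2648, 2326.5 and 2502 in WT, and rose (0.59 ± 0.08, limma adjusted p = 0.0178). Ncapg, a condensin I subunit, had signals of 849, 821, 818 and 817 in KO, against 572, 591 and 584 in WT, and rose (0.49 ± 0.08, limma adjusted p = 0.0211). Next in order of p were Haus6 (0.51), the spindle pole gene Numa1 (-0.35) and the centriole gene Stil (0.39), with adjusted p of 0.0518 to 0.0577.

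The genes of DNA replication, which act just before mitosis in the same cycle, gave more calls. Of 54 tested, 14 rose and none fell, which is 25.9% called higher against 2.48% of all genes. Their median log2 fold change was 0.37. The count was 8 without KO 6, 3 without KO 4, 2 without KO 5, 1 without WT 5 or WT 7, and 0 without KO 7 or WT 6. At an unadjusted p under 0.05, 37 of 54 (68.5%) were higher, against 11.8% of all genes. The helicase gene Mcm5 was at 0.87, the histone chaperone gene Nasp at 0.61, the replication complex gene Gins1 at 0.94, Mcm2 at 0.52 and the exonuclease gene Exo1 at 0.66, each with a limma adjusted p of 0.0201 to 0.025. The median deviation of the DNA replication genes was 0.17 to 0.20 on KO 4, KO 5 and KO 7 and 0.05 on KO 6, against -0.23 to -0.16 on the WT arrays. KO 6 was thus the lowest KO array for DNA replication, and KO 6 and KO 7 were lowest for the mitosis members. Whether the lists differ was not tested, since their genes are not independent and the members were chosen with results known.

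**Figure D5:**
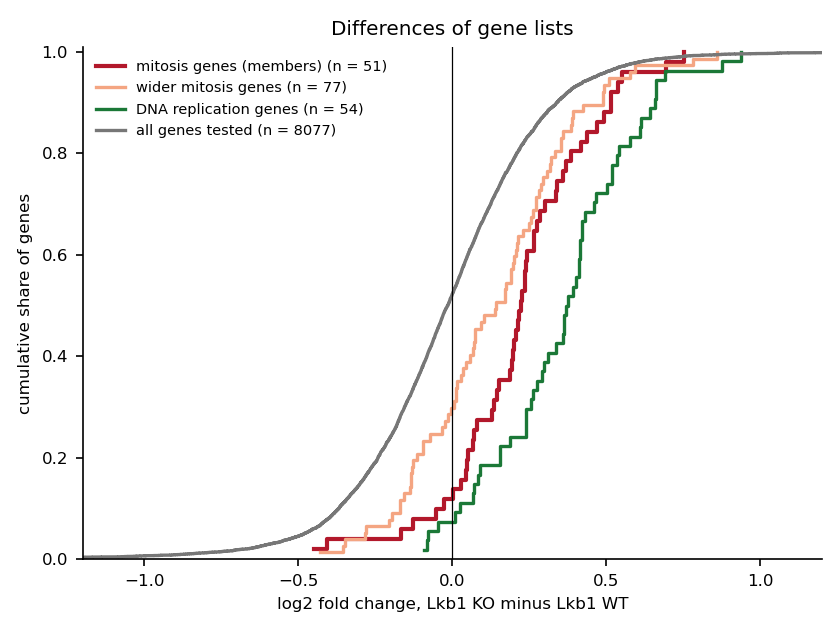
Cumulative share of genes (y axis) at or below each log2 fold change (x axis, KO minus WT) for the 51 mitosis genes, 77 wider mitosis genes, 54 DNA replication genes and all 8077 tested genes. At the median, the curve of the mitosis genes (0.22) lies between those of all genes (-0.02) and of DNA replication (0.37).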

How the data were processed

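RNA of 7 samples (4 Lkb1 KO, 3 Lkb1 WT) was measured on 1 array each. The deposited values are linear signal intensities from MAS5, per the submitters' processing notes. Its version and scaling target were not given in the sources used here. With 7 arrays, their number limits the precision. Of 22690 probe sets, 64 were controls, 20380 had 1 gene symbol, 691 several and 1555 none in the platform annotation. Of those with 1 symbol, 20351 were matched to the gene table of GRCm38.p6, used for names. Signals were quantile-normalised over non-control probe sets, since the deposited intensities were not on a common level, and analysed as log2(signal + 16), which understates changes of dim genes. Genes whose mean normalised signal exceeded the 40th percentile (32.2 units) were fitted with limma 3.58.1 in R 4.3.3 (genotype alone, 5 residual degrees of freedom). P-values were adjusted by Benjamini-Hochberg over all 8077 genes. Background was the 95th percentile of 27 control probe sets for transcripts not added. The fit was tested on simulated data. Members and lists were chosen with earlier results of these data known. Values per array are given for members past the threshold, the member of lowest p in each of 11 roles, Cdk1, Plk1, Aurkb, Top2a, Foxm1, Mki67 and the 2 lowest log2 fold changes; of the wider mitosis and DNA replication lists, the 5 genes of lowest p are named. Alternatives covered scaling, pseudocount, filter, probe sets, the replicate number as a block, array weights, a variance trend, an Actb covariate (added later) and leaving out each sample. Sample numbers 5 to 7 are shared by the groups, but same-numbered samples correlated at 0.03, 0.09 and 0.05 in their deviations, so they were not treated as pairs.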

Additional observations from a re-analysis of the deposited data

Results flagged for a closer look

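Of the 51 tested members, 1 had a KO array far from the other 3 by Dixon's criterion for 4 values, which chance alone meets in about 1 of 20 groups. Ndc80, which codes for a microtubule-binding kinetochore protein, had a normalised signal of 268 on Lkb1 KO 5 and 185 to 193 on the other KO arrays. The gap was 0.897 of the group's range. KO 5 was also the array with the most members above their own mean.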

How the results depend on the processing

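The members' median log2 fold change stayed above 0 in all settings run, and no member was called lower in any. It was 0.62 with signals as deposited and 0.36 with median centring, and 0.19 to 0.27 in the fits without 1 sample. The other counts moved as follows. Members called higher (5) were 25 as deposited, 9 with median centring, 2 with a pseudocount of 1, 8 with 64, 0 without a filter on dim genes, 3 with the mean of all probe sets, 3 with array weights, 11 with a variance trend, and 0 to 1 without 1 sample. In the signals as deposited, 16.2% of all tested genes were called higher. Members without overlap (16, against 11.4% of all genes) were 39 as deposited, 25 with median centring, and 16 to 28 without 1 sample. Without 1 sample, 13.2% to 16.3% of all genes had no overlap with KO higher. This share was not computed as deposited, where all KO arrays were brighter, or with median centring, so the counts of 39 and 25 have no reference. All genes called (434) were 1350 as deposited, 711 with median centring, 691 with a pseudocount of 64, 75 without a filter, 713 with the filter at the 60th percentile, 892 with a variance trend, and 36 to 194 without 1 sample. Wider mitosis genes called higher (2) were 27, 12, 7, 1, 10 and 11 in the same 6 settings, and 0 to 2 without 1 sample. DNA replication genes called higher (14) were 37, 24, 22, 2, 24 and 31 in these 6 settings, and 0 to 8 without 1 sample. With the replicate number as a block, or with the Actb ratio as a covariate, 1 gene passed in all, and 0 members, 0 wider mitosis genes and 0 DNA replication genes. The Actb ratio did not overlap between the groups (11.4 to 12.3 in KO, 12.6 to 13.1 in WT). A fit with it can therefore hardly tell the ratio from genotype, and nothing is concluded from its loss of calls. The block leaves fewer residual degrees of freedom, and pairing by number was weak and not established: WT 6 and WT 7 correlated best with their own number and WT 5 did not. The sign turned for Plk1 (0.16 as deposited, 0.048 without WT 5, with -0.34 to 0.048 over the fits without 1 sample) and Foxm1 (0.18 as deposited, 0.061 with the Actb ratio). Otherwise the 17 named members kept their sign. The cause of these changes was not tested.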
